A study of Mus musculus with 15 samples.

Results

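The 10 genes followed here encode transcription regulators of the hematopoietic stem cell (HSC), the bone marrow cell that renews itself and gives rise to all blood lineages: Hlf, Mecom, Gata2, Mllt3, Erg, Runx1, Tal1, Lyl1, Etv6 and Prdm16. They are a list of gene names, 10 of the 46105 genes in the deposited tables, and each was read from its row of exon reads, with the 2 entries of Erg added up. RNA was sequenced from 15 libraries of HSCs from bone marrow of wild-type C57BL/6 mice aged 8 to 10 weeks, each made from 100 sorted cells. The groups are called by their labels. Untreated (n = 4) and 5-FU day4 (n = 4) are HSCs taken from mice without treatment and from mice 4 days after 5-fluorouracil, a pyrimidine analog toxic to cells in division. Control (n = 3) and Nifedipine (n = 4) are HSCs cultured without or with nifedipine, a dihydropyridine blocker of L-type voltage-gated calcium channels, and sorted afterwards among cells that had divided no more than 3 times. Doses, culture length and medium, and the number of mice were not given in the sources used here. Nor do the labels say that replicates are separate animals or cultures, and the p-values cover only the spread among these libraries, which may be technical.

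The 10 factors work as a connected network in blood stem cells. GATA2, TAL1, LYL1, ERG and RUNX1, with the bridging proteins LMO2 and LDB1, are known to bind many shared enhancers. ETV6 is an ETS-family repressor needed by adult HSCs, and HLF, MECOM, PRDM16 and MLLT3 have reported roles in keeping stem cells self-renewing. Several of them also work outside HSCs: ERG, TAL1, LYL1, GATA2 and MECOM in endothelium, GATA2 and TAL1 in mast cells, and TAL1 in erythroid cells and megakaryocytes.

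Promoter sequence is shown for 4 of them, because 3 (Hlf, Mllt3 and Prdm16) followed the same order of groups and 1 (Tal1) followed Gata2, as described below. Each line is the 250 bases before the RefSeq start site in GRCm38.p6, read 5′ to 3′ on the strand of the gene. Capitals mark matches to the motifs searched on both strands: GATAA (GATA factors), CGGAAG (ETS factors), TGTGGT (RUNX factors), CANNTG (the E-box of factors such as TAL1 and LYL1), TTACGTAA and TTATGTAA (factors of the HLF type) and TGACGTCA (the cAMP response element), the last added after the Hlf sequence had been seen.
Hlf (chr11:90390918-90391167, minus strand): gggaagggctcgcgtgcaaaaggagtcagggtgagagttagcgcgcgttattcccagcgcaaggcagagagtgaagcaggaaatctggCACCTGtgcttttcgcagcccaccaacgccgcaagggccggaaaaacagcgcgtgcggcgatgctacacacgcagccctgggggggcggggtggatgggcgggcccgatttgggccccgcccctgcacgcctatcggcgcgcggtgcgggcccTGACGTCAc
Mllt3 (chr4:88033408-88033657, minus strand): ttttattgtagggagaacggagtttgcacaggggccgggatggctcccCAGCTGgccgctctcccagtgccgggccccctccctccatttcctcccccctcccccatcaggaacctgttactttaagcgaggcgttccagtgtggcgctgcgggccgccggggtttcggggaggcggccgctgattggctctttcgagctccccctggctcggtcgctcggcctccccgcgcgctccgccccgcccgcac
Prdm16 (chr4:154636874-154637123, minus strand): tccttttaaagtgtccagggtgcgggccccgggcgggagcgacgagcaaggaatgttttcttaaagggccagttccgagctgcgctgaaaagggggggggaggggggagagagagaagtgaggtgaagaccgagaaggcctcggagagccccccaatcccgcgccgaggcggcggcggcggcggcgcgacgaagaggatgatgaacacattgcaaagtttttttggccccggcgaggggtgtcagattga
Tal1 (chr4:115056176-115056425, plus strand): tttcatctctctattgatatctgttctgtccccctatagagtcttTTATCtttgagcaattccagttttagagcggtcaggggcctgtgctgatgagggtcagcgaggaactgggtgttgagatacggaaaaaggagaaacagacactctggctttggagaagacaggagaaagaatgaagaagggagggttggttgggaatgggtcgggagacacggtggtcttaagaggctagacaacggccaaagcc
The Hlf window held an E-box and a cAMP response element with 1 base between it and the start site, the Mllt3 window an E-box, the Tal1 window a GATA motif on the opposite strand, and the Prdm16 window none of the 7 motifs. No 2 matches overlapped. Over all 17 start windows of the 10 genes, 7 held an E-box, 4 a GATA motif, 2 an ETS motif, 1 the cAMP response element, and none the RUNX or the HLF-type motifs. Among 32851 windows of this length in the RefSeq table, 66.2% held an E-box, 22.6% a GATA motif, 13.6% an ETS motif, 14.0% a RUNX motif, 1.55% the cAMP response element, 0.113% TTACGTAA and 0.819% TTATGTAA. A match is a string of letters and not a bound site.

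Exon reads per library ranged from 6171730 to 26673045, the fewest in Untreated. All 11 HSC markers listed, among them Procr, Slamf1, Kit and Fgd5, were at 1 CPM or more in each group, and their summed level was 2122 to 2314 CPM in Untreated, 1541 to 1779 after 5-FU, 924 to 985 in Control and 1258 to 1465 with Nifedipine. Here CPM is the usual depth-scaled unit of exon reads, after scaling all 15 libraries together. Summed markers of other cells varied most in Untreated: 9 stromal genes gave 19.3 to 1838 CPM (highest in Untreated 2), 10 endothelial genes 122 to 698 CPM (highest in Untreated 1), 9 erythroid genes 69.0 to 2130 CPM and 7 macrophage genes 18.0 to 181 CPM. In the cultured libraries Cxcl12, Col3a1, Vcam1, C1qa, C1qb and C1qc were at 0 reads, the stromal sum was 6.91 to 14.7 CPM and the endothelial sum 42.0 to 84.3 CPM. The 6 mast cell and basophil genes listed together reached at most 1.63 CPM in any library, and 8 megakaryocyte genes gave 90.0 to 149 CPM in the fresh and 243 to 336 CPM in the cultured libraries. A set of 6 proliferation genes summed to 151 to 634 CPM in Untreated, 2351 to 2735 after 5-FU, 2603 to 2785 in Control and 1734 to 1927 with Nifedipine. Cd48, which encodes a surface protein that HSCs lack and many progenitors carry, was at 1.04 to 3.18 CPM in Untreated, 1.38 to 3.55 after 5-FU, 12.1 to 21.1 in Control and 2.89 to 7.34 with Nifedipine. In samples of 100 cells, fewer cells of a type and less RNA per cell cannot be told apart.

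Levels between genes were compared as deposited RPKM, which is per exon length. Hlf was the highest in Untreated at 79.2 ± 5.23 RPKM (SD, n = 4), rank 97 of the 14076 genes tested over all libraries, and it made up 36.3% of the summed RPKM of the 10 factors. Its share was 27.6% after 5-FU (50.5 ± 2.55 RPKM, n = 4), 10.4% in Control (12.1 ± 1.31 RPKM, n = 3) and 20.9% with Nifedipine (33.7 ± 3.02 RPKM, n = 4). In Control the gene ranked 2201 among all genes and stood behind Etv6, Gata2 and Runx1 among the 10. Its libraries there overlapped those of Runx1, Tal1 and Mecom. Etv6 was also high in each group, at 30.2, 31.3, 25.9 and 34.0 RPKM in Untreated, 5-FU day4, Control and Nifedipine, next after Hlf in the fresh groups and at the top in the cultured groups, where with Nifedipine it overlapped Hlf. Prdm16 was the lowest of the 10 in each group, at 3.33 ± 0.248 RPKM in Untreated (n = 4) and 0.893 ± 0.0230 RPKM in Control (n = 3). Between these, Mllt3 ranked 3 in Untreated (24.0 RPKM) and 9 in both cultured groups (4.28 and 7.36 RPKM). Gata2 ranked 6 in Untreated (16.1 RPKM, overlapping Mecom, Erg and Runx1) and 2 in Control (20.3 RPKM).

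**Figure D1:**
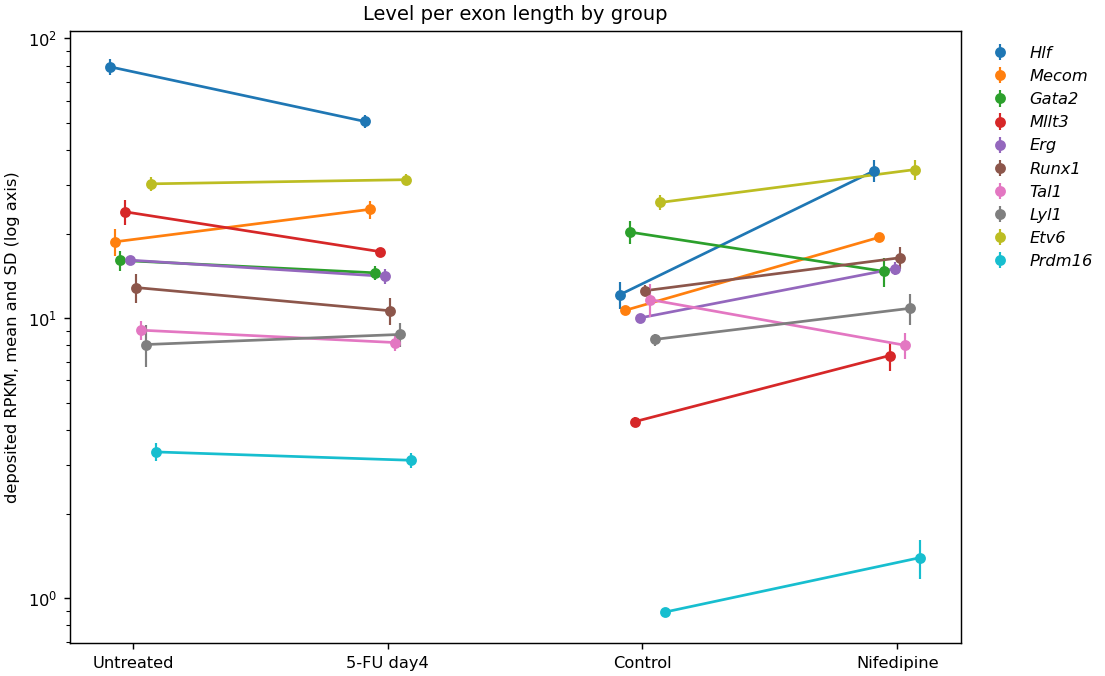
Deposited RPKM (log axis) of the 10 genes, mean and SD in each group, with lines joining only the groups of 1 experiment. Hlf falls from 79.2 in Untreated to 12.1 in Control, while Etv6 stays between 25.9 and 34.0.

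Hlf encodes a PAR-type bZIP factor that marks HSCs and supports their maintenance (chr11:90336535-90390917, minus strand, mm10, 5809 bases of exon). It was at 1807, 1680, 1621 and 1574 CPM in Untreated, 846, 874, 941 and 987 CPM after 5-FU, 215, 191 and 221 CPM in Control and 601, 608, 508 and 539 CPM with Nifedipine. The 4 groups did not overlap, and they ran from Untreated through 5-FU day4 and Nifedipine down to Control. Log2 changes were -0.84 ± 0.0568 (SE) after 5-FU (edgeR adjusted p = 3.88e-06), 1.43 ± 0.0745 with Nifedipine against Control (adjusted p = 1.11e-10), a 2.70-fold rise, and -2.95 ± 0.0736 in Control against Untreated (adjusted p = 9.98e-09), a 7.71-fold fall.

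Mllt3 encodes AF9, a YEATS-domain reader of acylated histones that links them to transcription elongation and to the methyltransferase DOT1L (chr4:87769925-88033407, minus strand, 6569 bases of exon). Its values were 574, 540, 510 and 672 CPM in Untreated, 349, 354, 360 and 350 CPM after 5-FU, 78.6, 89.9 and 82.1 CPM in Control and 134, 128, 146 and 147 CPM with Nifedipine. This is the same order of groups as for Hlf, again without overlap, and the 5-FU libraries lay closer together than in any other group of the gene (coefficient of variation 1.39%). The gene fell by 0.67 ± 0.0742 after 5-FU (edgeR adjusted p = 4.27e-05), rose by 0.74 ± 0.0769 with Nifedipine (adjusted p = 3.85e-07) and fell by 2.73 ± 0.105 in Control against Untreated (adjusted p = 3.98e-08), all as log2.

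Prdm16 encodes a PR-domain zinc finger protein required for HSC maintenance (chr4:154316122-154636873, minus strand, 9043 bases of exon). It was at 111, 97.9, 110 and 120 CPM in Untreated, 86.0, 79.0, 96.6 and 88.2 CPM after 5-FU, 24.1, 24.4 and 23.5 CPM in Control and 41.8, 41.5, 32.3 and 30.3 CPM with Nifedipine. Its groups kept the order of Hlf and Mllt3 with no overlap on this scale, while in deposited RPKM the Untreated (2.98 to 3.56) and 5-FU day4 (2.85 to 3.34) libraries overlapped. The log2 change was -0.30 ± 0.0764 after 5-FU (edgeR adjusted p = 0.00793), 0.60 ± 0.128 with Nifedipine (adjusted p = 0.000697) and -2.14 ± 0.0876 in Control against Untreated (adjusted p = 5.03e-08).

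Mecom, the relative of Prdm16 that encodes EVI1 and its PR-domain form MDS1-EVI1 (chr3:29951296-30509783, minus strand, 9032 bases of exon), differed from the other self-renewal genes after 5-FU. Its level was 632, 519, 650 and 663 CPM in Untreated, 689, 720, 718 and 622 CPM after 5-FU, 271, 306 and 282 CPM in Control and 497, 572, 482 and 483 CPM with Nifedipine. In CPM, Untreated and 5-FU day4 overlapped, Nifedipine overlapped Untreated, and Control lay below all others. In deposited RPKM, 5-FU day4 (21.9 to 26.0) lay above Untreated (15.8 to 20.3) without overlap. After 5-FU the log2 difference was 0.19 (95% interval 0.01 to 0.36) and did not pass (edgeR adjusted p = 0.0679), but it passed under 5 of 20 alternative settings. Nifedipine raised the gene by 0.83 ± 0.0697 (adjusted p = 2.93e-08), and Control was lower than Untreated by a log2 of -1.05 ± 0.0854 (adjusted p = 2.88e-06). In RPKM the level of Mecom over that of Prdm16 was 5.62 ± 0.269 in Untreated, 7.91 ± 0.901 after 5-FU, 11.95 ± 0.652 in Control and 14.2 ± 1.74 with Nifedipine (SD of libraries).

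**Figure D2:**
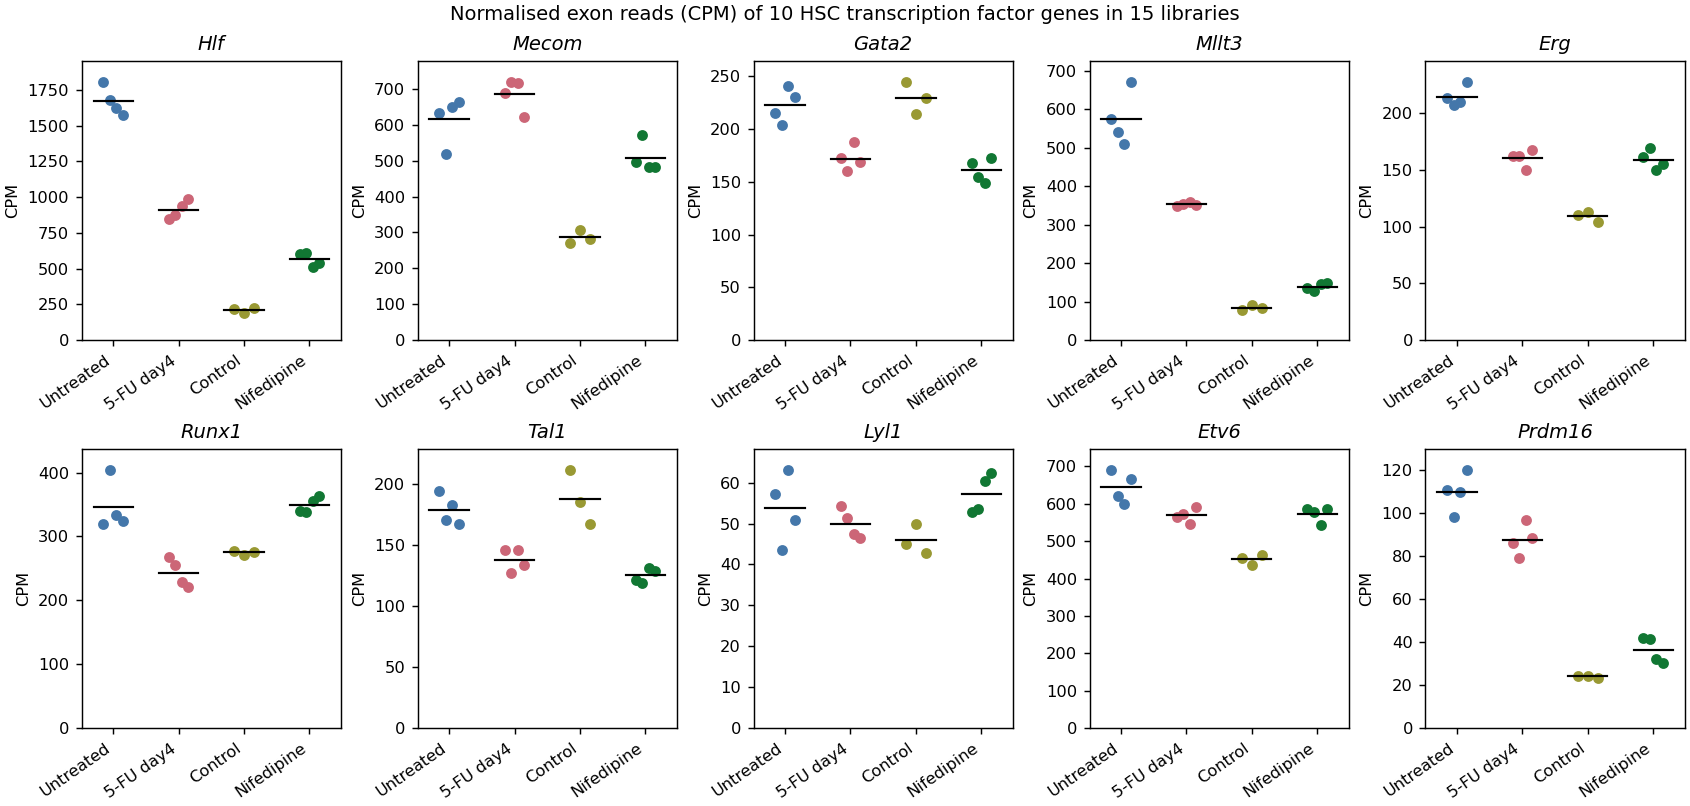
CPM of each of the 10 genes in the 15 libraries (points, with the group mean as a bar; each axis starts at 0). Hlf, Mllt3 and Prdm16 step down from Untreated to 5-FU day4, Nifedipine and Control, whereas for Gata2 and Tal1 the Control and Untreated points overlap and the mean is lowest with Nifedipine.

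Gata2 encodes the zinc finger factor that HSCs need to form and survive (chr6:88193437-88207032, plus strand, 3807 bases of exon). It was at 216, 204, 241 and 230 CPM in Untreated, 172, 160, 187 and 168 CPM after 5-FU, 245, 215 and 229 CPM in Control and 168, 154, 148 and 173 CPM with Nifedipine. In CPM, Untreated and Control overlapped, as did 5-FU day4 and Nifedipine, and the former pair lay above the latter in every library. In deposited RPKM only Control (18.2 to 22.2) was separate from the others. Untreated (14.7 to 17.9) there overlapped 5-FU day4 (13.7 to 15.4) and Nifedipine (12.6 to 16.2). Gata2 fell by 0.34 ± 0.0678 after 5-FU (edgeR adjusted p = 0.00172) and by 0.51 ± 0.0704 with Nifedipine (adjusted p = 9.04e-06), both as log2. Between Control and Untreated the log2 difference was 0.10 (95% interval -0.07 to 0.26; adjusted p = 0.26).

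Tal1 encodes the bHLH factor SCL, which pairs with E proteins and joins GATA factors in the LMO2 complex (chr4:115056426-115071755, plus strand, 5421 bases of exon). Its libraries were at 194, 170, 183 and 167 CPM in Untreated, 146, 127, 146 and 133 CPM after 5-FU, 211, 185 and 167 CPM in Control and 121, 119, 131 and 128 CPM with Nifedipine. As with Gata2, Untreated and Control overlapped in CPM and both lay above 5-FU day4 and Nifedipine. In deposited RPKM only Control (10.5 to 13.4) was separate from the others. Untreated (8.28 to 9.86) there overlapped 5-FU day4 (7.66 to 8.90) and Nifedipine (6.80 to 8.65). Tal1 fell by 0.34 ± 0.0670 after 5-FU (edgeR adjusted p = 0.00161) and by 0.59 ± 0.0774 with Nifedipine (adjusted p = 5.68e-06), a 1.5-fold fall. Control differed from Untreated by 0.12 (95% interval -0.07 to 0.32; adjusted p = 0.23). The 2 genes lie on different chromosomes, and the ratio of Gata2 to Tal1 in RPKM was 1.78 ± 0.172 in Untreated, 1.78 ± 0.0643 after 5-FU, 1.75 ± 0.178 in Control and 1.84 ± 0.161 with Nifedipine. This pair was picked after its values were seen. Hlf over Gata2, by contrast, was 4.95 ± 0.584, 3.48 ± 0.287, 0.597 ± 0.0296 and 2.30 ± 0.225 in the same groups.

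Lyl1, the bHLH paralog of Tal1 (chr8:84701422-84704716, plus strand, 1836 bases of exon), had 291 to 1273 reads per library. It was at 57.3, 43.4, 63.1 and 51.0 CPM in Untreated, 54.3, 51.3, 47.3 and 46.5 CPM after 5-FU, 45.1, 49.9 and 42.8 CPM in Control and 52.8, 53.6, 60.4 and 62.3 CPM with Nifedipine. No neighbouring groups in its order were separate, and the highest mean was 1.25 times the lowest. With Nifedipine it rose by 0.32 ± 0.0951 (edgeR adjusted p = 0.00926). The difference was -0.08 (95% interval -0.33 to 0.17) after 5-FU (adjusted p = 0.561) and -0.18 (95% interval -0.45 to 0.09) in Control against Untreated (adjusted p = 0.211), and the second passed without Untreated 2, where Lyl1 was lowest (adjusted p = 0.0491). The level of Tal1 over that of Lyl1 in RPKM was 1.14 ± 0.143 in Untreated, 0.940 ± 0.0863 after 5-FU, 1.39 ± 0.176 in Control and 0.740 ± 0.0338 with Nifedipine.

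Erg, an ETS factor required for HSC self-renewal (chr16:95359169-95586593, minus strand, 3660 bases of exon), was at 213, 207, 210 and 228 CPM in Untreated, 162, 162, 150 and 168 CPM after 5-FU, 110, 113 and 104 CPM in Control and 161, 169, 150 and 155 CPM with Nifedipine. In CPM, the 5-FU day4 and Nifedipine libraries overlapped at a level between Untreated and Control, which were both separate from them. In deposited RPKM, Untreated (15.6 to 16.7) and Nifedipine (14.4 to 16.2) overlapped. Erg fell by 0.39 ± 0.0548 after 5-FU (edgeR adjusted p = 0.000195), rose by 0.54 ± 0.0694 with Nifedipine (adjusted p = 3.95e-06) and fell by 0.93 ± 0.0618 in Control against Untreated (adjusted p = 8.01e-07). Endothelium also expresses Erg. The endothelial sum was 122 to 698 CPM in Untreated, 148 to 181 after 5-FU, 42.0 to 49.7 in Control and 70.0 to 84.3 with Nifedipine. Outside Untreated it was mostly Egfl7 (means of 106, 24.2 and 47.0 CPM in the same order) and Emcn (38.1, 10.1 and 17.1 CPM). Cdh5 was at 24.0 CPM in Untreated and 1.77, 1.45 and 1.41 CPM in the others, and Kdr at 35.9 and 3.53, 4.83 and 3.25 CPM. The part of endothelial RNA in the Erg values was not tested.

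Etv6, the ETS repressor also called TEL (chr6:134035700-134270158, plus strand, 5860 bases of exon), changed least among the genes that passed after 5-FU. It was at 691, 620, 600 and 666 CPM in Untreated, 565, 572, 547 and 592 CPM after 5-FU, 456, 436 and 462 CPM in Control and 585, 579, 544 and 587 CPM with Nifedipine. In CPM, Untreated lay above the other groups, 5-FU day4 and Nifedipine overlapped, and Control was lowest. In deposited RPKM, Untreated (28.9 to 32.4) overlapped 5-FU day4 (29.2 to 32.1) and Nifedipine (30.6 to 36.7), and its mean was below both. The log2 change was -0.15 ± 0.0511 after 5-FU (edgeR adjusted p = 0.0307), 0.35 ± 0.0546 with Nifedipine (adjusted p = 3.93e-05) and -0.46 ± 0.0613 in Control against Untreated (adjusted p = 9.11e-05). The 5-FU call was lost when Untreated 1 (adjusted p = 0.0915), Untreated 4 (0.0751), 5-FU day4 1 (0.0612), 5-FU day4 2 (0.0522) or 5-FU day4 3 (0.0722) was left out.

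Runx1, which binds DNA with its partner CBFB and is needed for HSCs to arise (chr16:92601466-92826074, minus strand, 7378 bases of exon), was lowest after 5-FU and not in Control. It was at 320, 404, 334 and 323 CPM in Untreated, 267, 256, 229 and 221 CPM after 5-FU, 278, 271 and 276 CPM in Control and 339, 339, 356 and 363 CPM with Nifedipine. In CPM, Nifedipine and Untreated overlapped, Control lay under both, and 5-FU day4 lay under Control. In deposited RPKM, Control overlapped both Untreated and 5-FU day4 and lay under Nifedipine only. The highest value, 404 CPM, was in Untreated 2, the library with the stromal sum of 1838 CPM, and whether the 2 are linked was not tested. Runx1 fell by 0.47 ± 0.0882 after 5-FU (edgeR adjusted p = 0.00121) and rose by 0.35 ± 0.0568 with Nifedipine (adjusted p = 6.25e-05). Its fall of 0.28 ± 0.0858 in Control against Untreated (adjusted p = 0.0157) was lost without Control 2 (0.0621) or Control 3 (0.0539), under the length and GC correction (-0.07, adjusted p = 0.471) and under the read total behind RPKM (-0.04, adjusted p = 0.734), and was made in 14 of 18 alternative settings.

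The first comparison set HSCs from mice 4 days after 5-FU against those from mice without treatment. In all, 8 of the 10 factors fell, by 1.11-fold (Etv6) to 1.80-fold (Hlf), and Mecom and Lyl1 did not pass. In CPM, these 8 were also those whose libraries did not overlap, all lower. In the background, 50.5% of the 13384 genes tested were called, 23.8% lower and 26.7% higher, and 23.3% were lower and 24.1% higher without overlap. The median log2 change of the 10 was -0.34, beside -0.02 for all genes. No member was called higher by edgeR or limma-voom, 1 (Mecom) had an unadjusted p under 0.05, and DESeq2 called that gene higher (log2 0.17, adjusted p = 0.0465). All 6 proliferation genes rose in the same libraries. Markers of other cells moved as well: of the endothelial genes tested 4 of 8 fell and 1 rose (sum 148 to 181 CPM after 5-FU and 122 to 698 in Untreated), of the stromal genes 2 of 9 fell (20.3 to 420 and 19.3 to 1838 CPM), and of the erythroid genes 2 of 4 fell (250 to 334 and 69.0 to 2130 CPM). Of the megakaryocyte genes tested 2 of 6 fell and 1 rose, and the 7 macrophage genes did not pass. Sox17, Hba-a1, Hba-a2 and Car1 were at 0 reads after 5-FU. The part of these genes in the falls was not tested. The count depends on the scale: when libraries were scaled by the read total that underlies RPKM, the median of all genes moved to 0.17 and the split of calls from 3580 higher and 3185 lower to 5149 and 1844. Then 4 members were lower (Hlf, Mllt3, Erg and Runx1) and Mecom was higher (0.38, adjusted p = 0.00223), and Etv6 stood at 0.049 (adjusted p = 0.467).

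In culture, the question was what nifedipine changes in HSCs that have divided few times. Of the 10 factors, 8 were higher with Nifedipine than in Control, from 1.25-fold (Lyl1) to 2.70-fold (Hlf), while Gata2 and Tal1 were lower. Libraries of the 2 groups did not overlap for any of the 10. Of the 12807 genes tested, 49.9% were called, 25.8% higher and 24.2% lower, and 25.7% were higher and 25.5% lower without overlap. The median log2 change was 0.45 for the 10 and 0.02 for all genes. Under all 17 alternative settings run for this comparison each of the 10 kept its direction and its call. The sum of the 6 proliferation genes was lower with Nifedipine (4 fell, 1 rose and 1 did not pass). Of the markers of other cells tested, 3 of 4 erythroid and 2 of 6 megakaryocyte genes (Pf4 and Gp9) fell. In the other direction, 2 of 7 endothelial and 1 of 3 macrophage genes rose. Cd48 was at 2.89 to 7.34 CPM beside 12.1 to 21.1 CPM in Control. The part of all these genes in the differences of the 10 was not tested. Set side by side, the mean levels with Nifedipine and in Untreated were 564 and 1670 CPM for Hlf, 139 and 574 CPM for Mllt3, 36.5 and 110 CPM for Prdm16, 509 and 616 CPM for Mecom and 349 and 345 CPM for Runx1, across experiments that cannot be told apart from the culture.

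**Figure D3:**
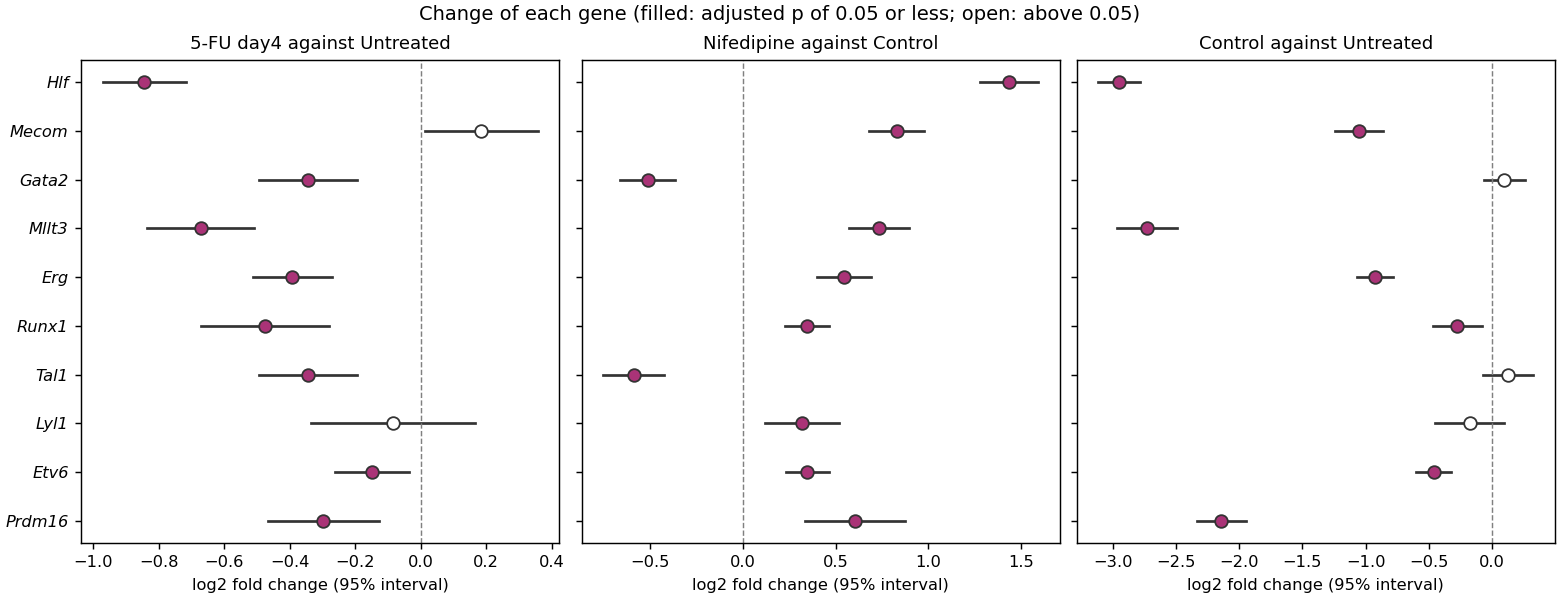
Log2 fold change of each gene with its 95% interval in the 3 comparisons (the axes differ in range; filled points passed an adjusted p of 0.05). Gata2 and Tal1 lie left of 0 after 5-FU and with Nifedipine, and their intervals include 0 in Control against Untreated.

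Control was set against Untreated to give the base from which the culture comparison starts. Fresh and cultured libraries form separate experiments, so culture and experiment cannot be told apart here, and the comparison shares its Untreated libraries with the 5-FU comparison. Among the 10 factors, 7 were lower in Control, by 1.21-fold (Runx1), 1.38-fold (Etv6), 1.90-fold (Erg), 2.08-fold (Mecom), 4.41-fold (Prdm16), 6.64-fold (Mllt3) and 7.71-fold (Hlf). Gata2, Tal1 and Lyl1 did not pass. Across the 13520 genes tested, 72% were called, 36.1% lower and 35.8% higher, and 37.4% were lower and 34.6% higher without overlap. The 7 did not overlap in CPM either, and the median was -0.69 for the 10 and -0.05 for all genes. All 6 proliferation genes were higher in Control, and all 9 stromal, all 7 macrophage and 7 of 8 endothelial genes tested were lower. Of the megakaryocyte genes tested, 3 of 6 were higher and 1 was lower. Of the erythroid genes tested, 5 of 7 were lower and 1 (Gata1) was higher. Cd48 was at 12.1 to 21.1 CPM beside 1.04 to 3.18 CPM in Untreated. Their part in the member values was not tested. No member was called higher by edgeR, DESeq2 or limma-voom, and none of the positive differences had an unadjusted p under 0.05. Scaled by the total that underlies RPKM, Gata2 (0.34) and Tal1 (0.36) were called higher and Runx1 (-0.04, adjusted p = 0.734) was not called, while the calls over all genes went from 4842 higher and 4887 lower to 5835 and 3877 and their median to 0.18.

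The 2 treatment effects share no library and were compared directly, as the Nifedipine change minus the 5-FU change in 1 fit over all 15 libraries. The difference was positive and passed for 8 of the 10, led by Hlf (2.31 ± 0.102, edgeR adjusted p = 5.95e-11) and Mllt3 (1.44 ± 0.109, adjusted p = 8.68e-09), and included Runx1 (0.85 ± 0.106, adjusted p = 2.97e-06) and Lyl1 (0.43 ± 0.149, adjusted p = 0.0201). Over the 14076 genes tested, 55.4% had a difference that was called, 29% higher and 26.4% lower, and the median was 0.76 for the 10 and 0.11 for all. For Gata2 it was -0.14 (95% interval -0.35 to 0.07; adjusted p = 0.26) and for Tal1 -0.21 (95% interval -0.45 to 0.02; adjusted p = 0.106). None of the 10 was called lower by edgeR or limma-voom, and none had a negative difference with an unadjusted p under 0.05. Scaling by the RPKM read total changed the split over all genes from 4077 higher and 3715 lower to 3081 and 4343, called Tal1 lower (-0.39, adjusted p = 0.023) and lost Lyl1 (adjusted p = 0.231). The Lyl1 call was also lost without Control 1 (0.119), Control 3 (0.0593) or Nifedipine 4 (0.119). Tal1 was also called lower without Control 3 or Nifedipine 4, and Gata2 without Nifedipine 4.

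Likeness of pattern was measured as the root mean square difference of centred log2 CPM over the 15 libraries, against 9284 genes with a mean of at least 10 CPM. Gata2 and Tal1 were each other's nearest gene (0.105), with Sirt1, a protein deacetylase, next for both (0.112 and 0.121). For Hlf the nearest were Klf12 (0.142) and Pard3b (0.149), for Mllt3 Hoxa3 (0.154) and Ppp1r9a (0.162), and for Prdm16 Notch1 (0.137) and Hoxa5 (0.149). Mecom was nearest to Mfhas1 (0.117) and Ubl3 (0.130), Erg to Plcg1 (0.0616) and Chd9 (0.0661), and Etv6 to Itga4 (0.0535) and Pcgf5 (0.0677). Runx1 was nearest to Acsl1 (0.0761) and Zfand1 (0.112), and Lyl1 to Fez2 (0.109) and Fbxo21 (0.109). The closest member to Hlf was Mllt3, at place 65 (0.320), and Mllt3 and Prdm16 were at place 23 and 52 of each other's lists (0.280). All of these values share the same libraries and scaling, and genes with small changes give small differences.

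**Figure D4:**
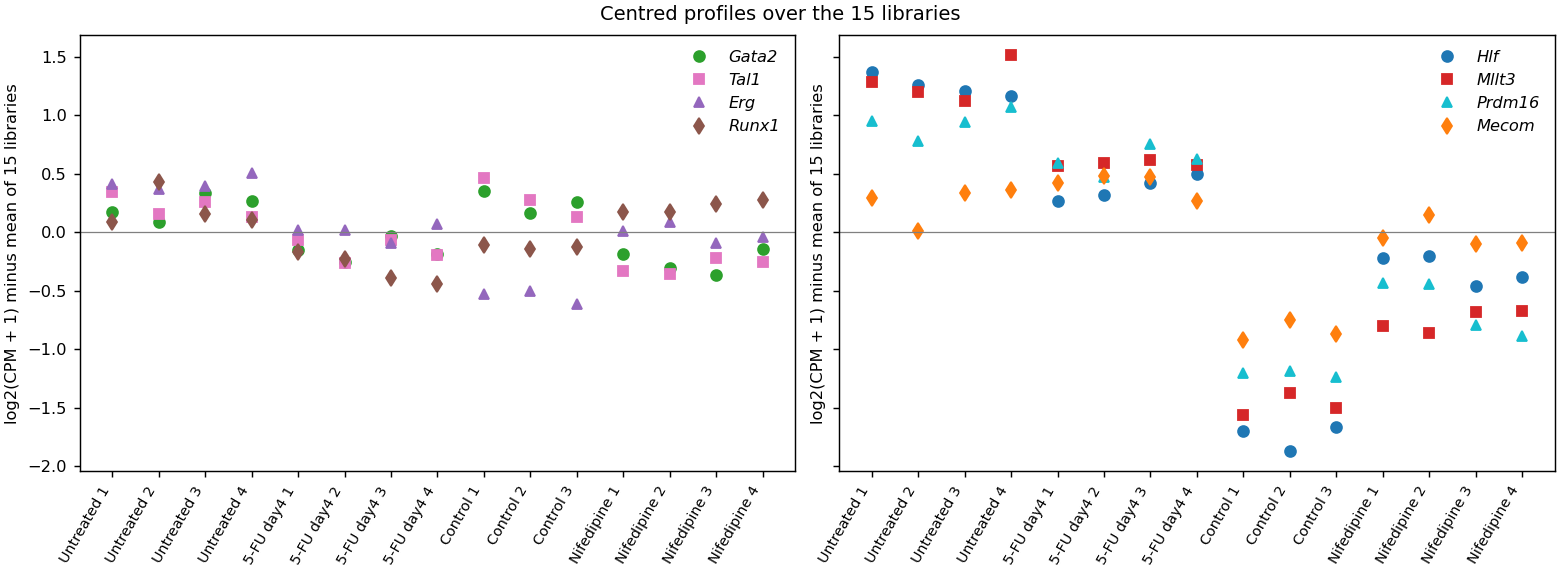
Centred log2(CPM + 1) of 8 of the genes in the 15 libraries (points; 0 is the mean of the gene over all libraries). In the left panel Gata2 and Tal1 lie together in each group, and in the cultured groups apart from Erg and Runx1. In the right panel Hlf, Mllt3 and Prdm16 are highest in Untreated and lowest in Control.

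Genes for DNA-binding partners and for the LMO2 complex moved in both directions (values for genes of these lists are log2 fold changes from the same edgeR fits). Counts in these lists stand beside 23.8% of all genes lower and 26.7% higher after 5-FU, 24.2% lower and 25.8% higher with Nifedipine, and 36.1% lower and 35.8% higher in Control against Untreated. After 5-FU, 7 of 15 tested fell and 3 rose, with Cbfa2t3, which encodes the corepressor ETO2, at -0.72, the bridging factor Lmo2 at -0.44 and Ssbp2, which stabilizes LDB1, at -0.40, while Cbfb, the partner of RUNX1, rose by 0.87. With Nifedipine 6 of 15 rose and 3 fell: Id2, an inhibitor of bHLH factors, rose by 1.74, Cbfa2t3 by 0.96 and Ssbp2 by 0.80, and Tcf3, which encodes E proteins that pair with TAL1, fell by 0.51. In Control against Untreated 8 of 16 fell and 3 rose, with Cbfa2t3 at -1.75, Ssbp2 at -1.14, Lmo2 at -0.70 and Cbfb at 1.28. The medians were -0.15, 0.16 and -0.32, beside -0.02, 0.02 and -0.05 for all genes.

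Partners of MLLT3 in the elongation and DOT1L complexes showed no common direction, with medians of -0.01, -0.09 and -0.04 in the 3 comparisons. After 5-FU 5 of 16 fell, among them Kmt2a (-0.46), the MLL methyltransferase, and Aff4 (-0.50), the scaffold of the super elongation complex, and 4 rose, among them Psip1 (0.56), which tethers MLL to chromatin, and Mllt1 (0.49), the paralog of Mllt3. With Nifedipine 5 fell and 4 rose, with Dot1l at -0.76, Mllt1 at -0.44, Aff1 at 0.44 and Ell2 at 0.45. In Control against Untreated 7 rose and 5 fell, with Dot1l at 0.83, Psip1 at 0.69, Kmt2a at -1.20 and Mllt6 at -0.63.

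Corepressors and chromatin enzymes that bind EVI1, PRDM16, ETV6 or TAL1 were also split, with 5 of 18 higher and 4 lower after 5-FU, 4 higher and 7 lower with Nifedipine, and 7 higher and 6 lower in Control. The H3K9 methyltransferase gene Suv39h1 rose by 0.75 after 5-FU, was at -0.71 with Nifedipine and at 1.36 in Control. The deacetylase gene Hdac2 followed the same signs (0.57, -0.65 and 1.12), and Skil, which encodes the SMAD corepressor SnoN, was at -1.06 after 5-FU and 0.59 with Nifedipine. Hdac1 rose by 0.46 after 5-FU and by 0.95 in Control, and Hdac3 was at -0.44 with Nifedipine and 1.35 in Control. Medians were 0.07, -0.14 and -0.02.

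Among paralogs of the 10, the HLF relative Tef fell after 5-FU (-1.07), as 7 of 20 did, and Gabpa (0.40), Yeats4 (0.51) and Yeats2 (0.35) were among 4 that rose (23.8% and 26.7% of all genes). With Nifedipine 7 of 21 rose and 5 fell (25.8% and 24.2% of all genes): Runx2 rose by 1.26, and Runx3 (-2.0) and the ETS gene Gabpa (-0.48) fell. Gata1, the erythroid GATA factor, had 132 to 301 reads in each Control library and 2 reads in all 4 Nifedipine libraries together, a ratio of 396 after scaling by library size (95% exact counting interval 109 to 3275, counting error only). In Untreated and 5-FU day4 it had 0 to 9 reads per library. In Control against Untreated 11 of 21 fell and 7 rose, with Runx2 at -1.44, Ets1 at -2.03, Prdm2 at -0.63 and Gabpa at 0.84, beside 36.1% and 35.8% of all genes. The medians were -0.17, 0.00 and -0.41.

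Of 25 other factors tied to HSCs, 14 were lower and 3 higher after 5-FU, 15 higher and 4 lower with Nifedipine, and 16 lower and 3 higher in Control. Among all genes the shares were 23.8% and 26.7%, 25.8% and 24.2%, and 36.1% and 35.8% in the same order. The medians of the list were -0.46, 0.37 and -0.82. The immediate early gene Egr1 was at -2.63 after 5-FU and -6.39 in Control, the quiescence factor Foxo3 at 0.89 with Nifedipine and -1.26 in Control, and Ikzf2 at 0.75 and -1.52. Ikzf1 (0.59) and Mycn (0.74) rose after 5-FU. Gfi1, a repressor that restrains HSC division, had 0 reads in the 3 Control libraries. Against a floor of 3 reads over that group it was at least 123-fold higher with Nifedipine (4.02 to 8.68 CPM) and at least 881-fold lower in Control than in Untreated (30.4 to 56.2 CPM).

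Genes known as direct targets of the 10 in blood cells were lower after 5-FU in 11 of 16 and higher in 1, with Kit, the stem cell factor receptor, at -0.61 and Nfe2 at -0.45 (all genes: 23.8% lower, 26.7% higher). With Nifedipine 8 rose and 6 fell (all genes: 25.8% and 24.2%), among them Kit (0.79) and Hhex (0.81) up and Itga2b, the CD41 gene, down (-2.50). In Control against Untreated 10 fell and 4 rose (all genes: 36.1% and 35.8%), with Kit at -1.42, the angiopoietin receptor gene Tek at -1.0 and Cdkn1c, which encodes the CDK inhibitor p57, at -2.32. Medians were -0.53, 0.44 and -0.77. Genes such as Spi1, Gfi1b, Hhex, Nfe2 and Cebpa stand both in this list and in that of the other HSC factors, so the 2 counts are not independent.

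**Figure D5:**
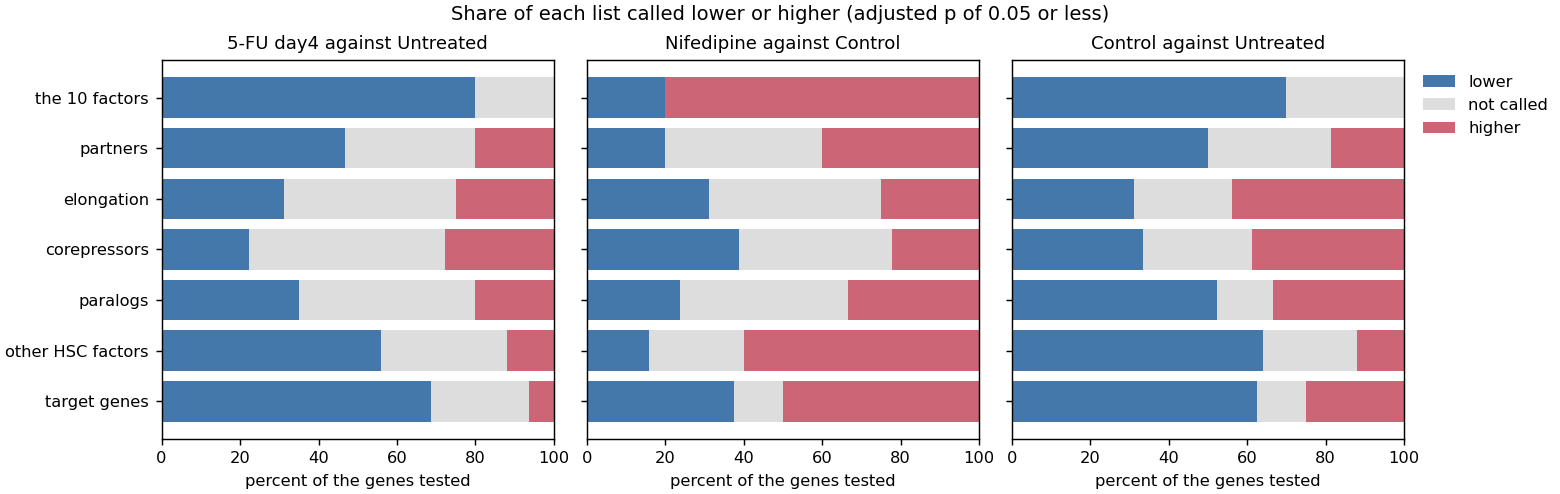
Percent of the tested genes of each list called lower, not called or called higher in the 3 comparisons. The 10 factors are 80% lower after 5-FU and 80% higher with Nifedipine, beside 23.8% and 25.8% of all genes tested. With Nifedipine the other 2 (Gata2 and Tal1) are lower. The elongation and corepressor lists split between both directions.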

How the data were processed

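RNA was measured in 15 libraries, grouped by their labels. Per the file headers, the deposited tables give total exon reads per gene, which are whole-number counts, and RPKM, which the authors scaled by exon length and a read total. Per the submitters' processing notes, coordinates are on mm10; aligner, counter and use of strand were not given in the sources used here. Entries of 1 gene on alternate scaffolds were added up (4565 copies of 1933 genes, giving 46105 genes). Exon reads are 25.0% to 38.9% of the read total behind RPKM, least in Untreated, so that total served as an alternative library size.

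Each comparison was fitted on its own counts with edgeR 4.0.16 in R 4.3.3 (TMM, filterByExpr, quasi-likelihood F test, Benjamini-Hochberg adjustment over all genes tested, called at 0.05 or less), and all 10 genes were tested in each. SE is the log2 fold change over the root of F. CPM uses TMM over all libraries. Alternatives were DESeq2 1.42.0, limma-voom (limma 3.58.1), other scalings, filters, a length and GC correction, and libraries left out. The fit was tested on simulated counts. The main fits did not use replicate numbers as pairs, and a block by number was an alternative. The labels describe no molecular identifiers, so intervals on reads cover counting error only.

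Without strand, reads of antisense genes cannot be told apart: exons overlap those of such genes by 81 bases in Mecom, 106 in Runx1, 4 in Lyl1, 135 in Etv6 and 109 in Prdm16 (GENCODE vM21). Promoter sequences are from RefSeq for all 10 genes.

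The members and lists were chosen with earlier results of these data known. Beside the 10 members, the text names from each list the 4 called genes with the smallest p, and for each member the 2 genes of most similar pattern. Some genes that this rule would name are not reported here. Gata1 and Gfi1 in groups outside that rule were named after their values were seen.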

Additional observations from a re-analysis of the deposited data

Results flagged for a closer look

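Mecom in Nifedipine 2 was at 572 CPM, while the other 3 libraries of that group lay between 482 and 497 CPM. The gap to the nearest library was 0.829 of the range of the group, just above the limit of Dixon's test for 4 libraries. This was 1 of 30 groups of 4 tested for the 10 genes, and chance marks about 1 in 20. Without that library the log2 change of Mecom with Nifedipine was 0.77 (edgeR adjusted p = 2.5e-08), beside 0.83 with it.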

How the results depend on the processing

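The call of the 10 genes was the same, either passed in the same direction or again not passed, in 183 of 200 values after 5-FU, 170 of 170 with Nifedipine, 169 of 180 in Control against Untreated and 192 of 200 for the difference of the 2 treatment changes. Differences not called in the reported analysis changed sign across settings: Lyl1 reached 0.11 after 5-FU, and in Control against Untreated Gata2 ran from -0.07 to 0.36, Tal1 from -0.04 to 0.40 and Lyl1 from -0.37 to 0.06. After 5-FU, 1 member (Mecom) was called higher under the RPKM read total, DESeq2, the length and GC correction, and without Untreated 3 and 5-FU day4 4 together. With the RPKM read total 1844 genes and 4 members were called lower, and Etv6 reversed to 0.049. In that setting Gata2 (adjusted p = 0.101), Tal1 (0.121) and Prdm16 (0.273) lost the call, and the length and GC correction lost Etv6 (0.31) and Prdm16 (0.216). In Control against Untreated, 2 members (Gata2 and Tal1) were called higher under the RPKM read total and under the length and GC correction. Lyl1 was called lower there with the filter at a mean of 10 CPM (-0.34, adjusted p = 0.0226). For the difference of the changes, 1 member (Tal1) was called lower under the RPKM read total. Beyond the shifts that these scalings give to all genes, the cause was not tested.

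Leaving out 1 library at a time gave 3129 to 3502 genes and 0 to 1 members higher and 2793 to 3322 genes and 7 to 8 members lower after 5-FU. With Nifedipine it gave 2874 to 3109 genes higher, 2729 to 3026 lower, and 8 and 2 members throughout. Control against Untreated had 4567 to 4809 genes and 0 members higher and 4508 to 4783 genes and 6 to 8 members lower. The difference of the changes had 3412 to 4022 genes and 7 to 8 members higher and 3585 to 4111 genes and 0 to 2 members lower. The 1 member gained after 5-FU was Mecom without 5-FU day4 4 (adjusted p = 0.0324). A setting without Untreated 2 and 4 was chosen after the data were seen. It called 7 members and 2443 genes lower after 5-FU, and 8 members and 4357 genes lower in Control. After 5-FU it lost Etv6 (edgeR adjusted p = 0.0899), and in Control it added Lyl1 (-0.37, adjusted p = 0.015).

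Deviations of libraries with the same replicate number had correlations from -0.148 to 0.113 after 5-FU and -0.00458 to 0.0366 in Control against Untreated. With Nifedipine every such pair was positive (0.0119 to 0.0858). After 5-FU 0 of 4 libraries matched best with their own number, with Nifedipine 2 of 4, and in Control against Untreated 1 of 3. Nifedipine 4 had no Control of its number to match. Values this small cannot settle whether libraries were paired. With the replicate number as a block, 3396 genes were higher and 2936 lower after 5-FU, 3196 and 3087 with Nifedipine, and 4598 and 4404 in Control, with the same counts of members as without the block. Lyl1 had the fewest reads of the 10 in the fresh groups and Prdm16 in the cultured ones.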

Other observations

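The 11 surface and identity markers of HSCs gave values beside the factors. After 5-FU 7 of 11 fell (23.8% of all genes), with Kit at -0.61, Cd27 at -0.69, Robo4 at -0.91 and Procr, the EPCR gene, at -0.42. With Nifedipine 7 rose and 3 fell (25.8% and 24.2% of all genes), and Ly6a, the Sca-1 gene (2.15), Procr (1.99) and Robo4 (1.90) rose more on the log2 scale than any of the 10 factors. In Control against Untreated 9 fell and 1 rose (36.1% and 35.8% of all genes), with Procr at -3.70, Ly6a at -3.61 and Robo4 at -3.82. Procr ranged from 84.4 to 101 CPM in Untreated, 54.3 to 78.9 after 5-FU, 4.89 to 7.79 in Control and 21.5 to 33.6 with Nifedipine, the same order of groups as Hlf. Slamf1, the CD150 gene, had its highest mean in Control (45.2 ± 2.84 CPM, n = 3) and its lowest with Nifedipine (22.3 ± 4.17 CPM, n = 4), as Gata2 and Tal1 did.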
